A study of Mus musculus with 4 samples.

Results

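The genes described are 9 myelin genes, Mbp, Mobp, Mag, Mog, Cldn11, Mal, Cnp, Ermn and Opalin, out of 21861 features in the count matrices. They were chosen by name, as genes of the myelin sheath, and all 9 were measured in each of the 4 libraries. Single cells came from brain tumors of 4 hGFAP-cre::TP53Fl/Fl::lsl-MYCN mice, 2 killed at 43 days (P43, mice 4 and 5) and 2 at 70 days (P70, mice 6 and 7). All 4 mice carry the same alleles: Cre from the human GFAP promoter removes Trp53 and switches on human MYCN with firefly luciferase, and no mouse without the alleles is compared here. Each group holds 2 mice and each mouse is 1 library. Cre under the hGFAP promoter acts in neural stem cells of the developing brain, so glia and neurons outside the tumor, normal oligodendrocytes among them, can carry recombined alleles too. The reporter below is the sum of FLUC (luciferase) and humanNMYC (human MYCN) UMIs.

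Oligodendrocytes wrap axons in a multilayered membrane, and they build it in steps. Progenitors leave the cell cycle, pass through a premyelinating state marked by Bcas1 and Enpp6, and then turn on the genes of the sheath. Mbp (myelin basic protein) and Mobp hold the cytoplasmic faces of the membrane together, and Cnp, an enzyme at the inner membrane, keeps cytoplasmic channels open. Cldn11 is the claudin of the tight junctions within myelin, and Mag sits at the contact between the inner turn and the axon. Mog is a glycoprotein of the outermost surface, Mal is a proteolipid that takes part in sorting of membrane proteins, Ermn is a cytoskeletal protein of mature cells, and Opalin is a membrane glycoprotein of oligodendrocytes. Mog, Mal, Ermn and Opalin are known as late genes of this sequence.

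Positions are from the annotation (GENCODE vM21 on GRCm38, whose gene identifiers match those in the files for all 9). Cnp is at chr11:100574904-100591729 (+), Mobp at chr9:120149707-120181484 (+), Cldn11 at chr3:31149920-31164324 (+), Mag at chr7:30899176-30914873 (-), Mog at chr17:37010743-37023398 (-), Opalin at chr19:41061710-41077113 (-) and Ermn and Mal on chromosome 2, at chr2:58045113-58052864 (-) and chr2:127633226-127656695 (-). Promoters of 8 members were taken from the RefSeq promoter table (GRCm38.p6, 300 bases each). The position and promoter of Mbp are not given here. The promoters shown are those of 4 members that differ in how far OL-like tumor cells stood from normal oligodendrocytes: Cnp and Mobp, nearer to the normal level, and Mog and Mal, farther from it. Capitals mark matches, on either strand, to the SOX motif ACAAAG, the Myrf motif CTGGNAC and the GC box GGGCGG.
Cnp, chr11:100574689-100574988, plus strand: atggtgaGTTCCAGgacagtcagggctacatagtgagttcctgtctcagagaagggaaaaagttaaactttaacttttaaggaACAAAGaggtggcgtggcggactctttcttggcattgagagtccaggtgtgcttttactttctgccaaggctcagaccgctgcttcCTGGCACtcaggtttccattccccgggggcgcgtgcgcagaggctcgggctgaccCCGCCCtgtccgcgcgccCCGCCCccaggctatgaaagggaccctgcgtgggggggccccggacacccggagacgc
Mobp, chr9:120149492-120149791, plus strand: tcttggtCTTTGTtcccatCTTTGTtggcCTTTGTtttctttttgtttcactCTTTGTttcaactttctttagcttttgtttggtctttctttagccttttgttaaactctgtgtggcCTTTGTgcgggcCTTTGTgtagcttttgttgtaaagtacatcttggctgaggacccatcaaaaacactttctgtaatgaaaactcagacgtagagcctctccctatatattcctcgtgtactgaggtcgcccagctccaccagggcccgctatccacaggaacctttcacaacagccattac
Mog, chr17:37023349-37023648, minus strand: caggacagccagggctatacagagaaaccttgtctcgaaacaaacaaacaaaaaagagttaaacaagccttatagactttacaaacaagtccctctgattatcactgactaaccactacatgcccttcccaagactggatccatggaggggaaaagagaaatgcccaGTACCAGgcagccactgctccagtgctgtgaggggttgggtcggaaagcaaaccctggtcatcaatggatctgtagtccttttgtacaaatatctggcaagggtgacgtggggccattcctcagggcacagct
Mal, chr2:127656646-127656945, minus strand: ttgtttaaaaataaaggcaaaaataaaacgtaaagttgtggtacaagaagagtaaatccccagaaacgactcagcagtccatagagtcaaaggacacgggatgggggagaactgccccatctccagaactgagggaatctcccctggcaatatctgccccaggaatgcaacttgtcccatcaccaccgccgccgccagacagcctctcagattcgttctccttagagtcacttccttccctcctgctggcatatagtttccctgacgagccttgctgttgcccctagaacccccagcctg
The SOX motif was found 6 times in the Mobp promoter, once in that of Cnp and not in those of Mog and Mal, and 18.7% of all 32851 promoters of the table hold it. The Myrf motif was found 2 times in the Cnp promoter and once in that of Mog, against 19.3% of all promoters with at least 1 match. The GC box was found only in the Cnp promoter among the 4 shown, with 2 matches, and 35.7% of all promoters hold it. In the promoters not shown, Opalin had 2 SOX matches and 1 Myrf match, Cldn11 1 GC box only, Ermn none of the 3 motifs, and Mag 0 or 1 SOX and 0 or 2 Myrf matches depending on its start. Among the 4 shown, SOX matches were found only for Cnp and Mobp, nearer to the normal level. Of the others, Opalin, farther from it, had SOX matches and Cldn11, nearer to it, had none. Whether matches relate to the members' level was not tested.

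Of 10975 cells kept, 4521 were OL-like (oligodendrocyte-like tumor cells), with 1852, 230, 364 and 2075 cells in mice 4, 5, 6 and 7. Mature oligodendrocytes (MOL) were 212 cells, with 65, 60, 4 and 83 cells, so that mouse 6 entered no ratio to MOL. The immune and vessel classes, Myeloid, DC (dendritic cells), Lymphoid, EC (endothelial cells) and mural cells, held 4543 cells together. Clusters were made and named without the 9 genes and without 16 other myelin genes, so the levels below were not used to define the classes. Libraries held 13106786 to 40621958 UMIs, and the library pairs shared 1 to 3 cell barcodes. Y-linked genes went against the labelled sex in both P43 mice, and sex was used for no comparison. MOL were named with a list of 13 markers, so their levels there describe the class and are no independent check. All 13 MOL markers had UMIs in MOL of mice 4 and 5 and 12 in mouse 7, where Klk6 was at 0. Their summed level was 30639, 32764 and 20939 CPM (a gene's UMIs over all UMIs of the class, scaled to the usual CPM unit). The same markers summed to 2063 to 3310 CPM in OL-like cells. The 10 lineage markers that named OL-like clusters summed to 1349, 1225, 1965 and 1794 CPM in OL-like cells of mice 4 to 7. In MOL of mice 4, 5 and 7 they were higher, at 2064, 2238 and 2260 CPM. Clusters with the reporter were named by markers raised over immune and vessel cells, not over MOL.

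The reporter did not separate MOL and OL-like cells cleanly in every mouse. In MOL of mice 4, 5 and 7 it reached 15.0, 25.2 and 486 CPM, against 840 to 3166 CPM in OL-like cells of the 4 mice. In mouse 7, 72.3% of MOL had a reporter UMI. The reporter in other classes of mouse 7 was at 433 CPM in EC, 355 in DC, 227 in Lymphoid, 196 in mural and 59.7 in Myeloid cells. Whether the reporter in MOL of mouse 7 is free RNA was not tested. In mouse 4, 327 OL-like cells, 17.7% of that mouse's OL-like cells, came from a cluster led by Ptgds and Dct that held only 314 CPM of the reporter there, under the limit of 500 CPM used to call a tumor cluster, although it passed that limit over all mice. These 327 cells had a median of 937 UMIs, all 13 MOL markers with a summed level of 20173 CPM, and 27542 CPM of the 9 myelin genes, against 5091 CPM in the other 1525 OL-like cells of mouse 4. For the 9 members, the comparisons with MOL, immune and vessel cells, cycling and age, and the values per cell, are also given without them.

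OL-like tumor cells carried all 9 myelin genes, but at a lower level than MOL of the same mouse, and unequally so. The sum of the 9 genes was 6909, 6478, 4959 and 5085 CPM in OL-like cells of mice 4, 5, 6 and 7, against 45343, 39144 and 22677 CPM in MOL of mice 4, 5 and 7. Because 3′ tags are counted once per captured transcript, these levels do not depend on transcript length.

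Mbp was the most abundant member in OL-like cells, at 2645, 2188, 1773 and 2017 CPM in mice 4 to 7. Cnp followed at 1793, 1518, 1642 and 1643 CPM, and was the steadiest member, with a mean of 1649 ± 112 CPM (SD, n = 4). Mbp was above Cnp in 4 of 4 mice. Together they gave 57.2 to 72.0% of the summed level in OL-like cells.

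Mobp, Cldn11 and Mag formed a middle group whose order was not settled by the mice. Mobp was at 494, 808, 431 and 408 CPM, Cldn11 at 527, 545, 448 and 430 CPM, and Mag at 337, 771, 477 and 255 CPM. Mobp stood above Cldn11 in 1 of 4 mice and Cldn11 above Mag in 2 of 4, and Mobp and Mag were both highest in mouse 5.

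Ermn, Mog and Opalin were lowest on average, and Mal varied widely between the mice. Mal was at 744, 314, 81.3 and 170 CPM in mice 4 to 7, Ermn at 205, 247, 85.6 and 71.3 CPM, Mog at 110, 76.4, 16.2 and 44.8 CPM, and Opalin at 53.9, 10.1, 4.35 and 44.4 CPM. In mouse 4 these 4 genes came largely from the 327 cells of low reporter: without them Mal was at 271 CPM, Ermn at 109 CPM, Mog at 17.6 CPM and Opalin at 7.49 CPM. Mbp and Cnp moved less, to 2287 and 1563 CPM. With all cells, Mal of mouse 4 was above Mobp, Cldn11 and Mag of that mouse.

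**Figure D1:**
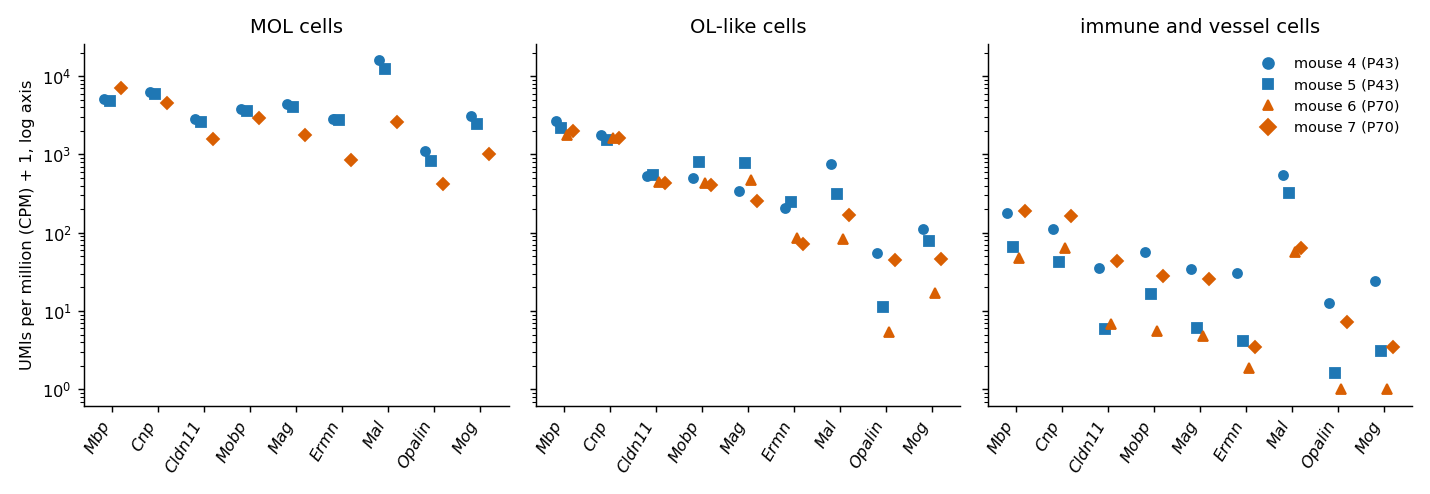
Level of each myelin gene, as CPM plus 1 on a log axis, in MOL, OL-like cells and the summed immune and vessel cells, with 1 point per mouse (blue P43, orange P70; mouse 6 is left out of MOL, where it had 4 cells). From MOL to OL-like cells the points of Mbp and Cnp fall least and those of Mal, Opalin and Mog most, and among immune and vessel cells Mal stands highest in mice 4 and 5.

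At P43 the rank in MOL was different. Mal was the most abundant member of MOL, at 15867 and 12174 CPM in mice 4 and 5, followed by Cnp at 6278 and 5858 CPM and Mbp at 5065 and 4843 CPM. Mal alone gave 35.0% and 31.1% of the summed level in MOL of mice 4 and 5, against 10.8% and 4.84% in OL-like cells of the same mice. Mbp gave 11.2% and 12.4% of the sum in MOL and 38.3% and 33.8% in OL-like cells. In MOL of mouse 7 (P70), Mbp came first at 7063 CPM, or 31.1% of the sum, and Cnp next at 4485 CPM, the same order as in OL-like cells.

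Every member was lower in OL-like cells than in MOL in each of the 3 mice with enough MOL. The median ratio over the 9 genes was -2.97 ± 0.67 on the log2 scale (SD of the mouse medians, n = 3), or 7.85-fold lower. It was -2.28 when the 5% of cells with the highest Scrublet (doublet) scores were left out and the rest clustered again. MOL were then 38, 36 and 44 cells in mice 4, 5 and 7, and OL-like cells of mouse 4 were 2096, against 1852. What part doublets have in this change was not tested. In the main setting, over 3623 genes with at least 50 CPM on 1 side in each mouse, the median was 0.12. With 1 CPM added, 8 of 9 members were at least 2-fold lower in each of the 3 mice, as were 15% of those genes. At least 8-fold lower in each were 4 of 9, against 1.35%. Opalin reached the limit of 50 CPM through MOL only in mice 5 and 7, as did Mog in mouse 7. For them the counts are partly set by the limit. With 3 mice, the exact two-sided sign-flip permutation test cannot go below 0.25, which is the value each of the 9 members reached.

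Mbp was least reduced, at 52.2%, 45.2% and 28.6% of the MOL level in mice 4, 5 and 7. Cnp stood at 28.6%, 25.9% and 36.6%, and Cldn11 at 18.5%, 21.0% and 27.7%. The position of Cnp above Cldn11 held in 3 of 3 mice, with a difference of 0.45 ± 0.17 on the log2 scale (SD, n = 3), whereas that of Mbp above Cnp did not exceed its spread (0.44 ± 0.69, higher in 2 of 3 mice).

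Mobp was at 13%, 22.8% and 13.8% of MOL and Mag at 7.56%, 18.8% and 14.5%. Ermn was at 7.29%, 8.98% and 8.46%. Below them, Mal was at 4.69%, 2.58% and 6.59%, Mog at 3.53%, 3.08% and 4.41%, and Opalin at 4.91%, 1.24% and 10.5%. Ermn was above Mal in 3 of 3 mice, while the order of Mal, Opalin and Mog did not exceed the spread between mice.

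Without the 327 cells of low reporter, mouse 4 had Mog at 0.566% of its MOL level, Opalin at 0.682%, Mal at 1.70% and Ermn at 3.86%, and the median ratio over the 9 genes was -3.28. Among MOL without a reporter UMI (56, 42 and 23 cells in mice 4, 5 and 7), that median was -3.05. In mouse 7, where most MOL had a reporter UMI, the log2 ratio of Mal went from -3.92 to -4.34 and that of Mog from -4.50 to -4.95 when these cells were left out.

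**Figure D2:**
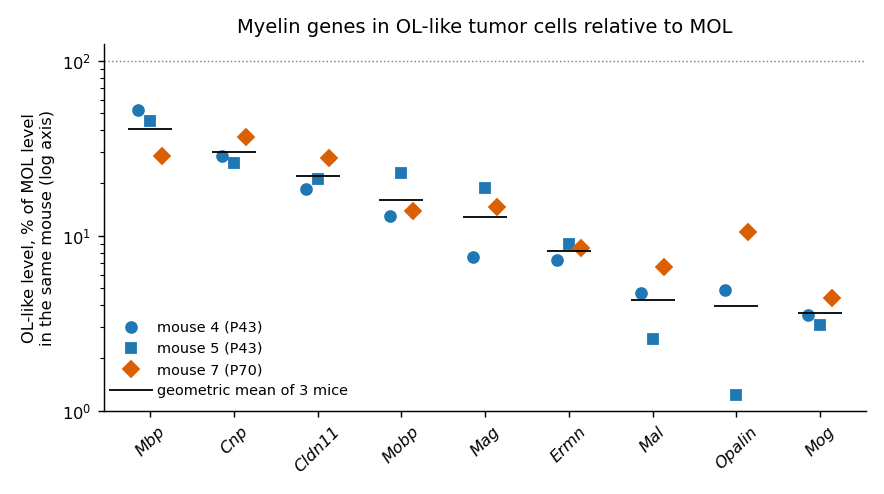
OL-like level of each gene as a percentage of the MOL level in the same mouse, on a log axis, for mice 4, 5 and 7 (points) with their geometric mean (bar). The genes run from Mbp, at 28.6 to 52.2%, down to Mog, at 3.08 to 4.41%, and no point reaches the dotted line at 100%.

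The other genes of the lineage followed related but not equal patterns. Of 16 other myelin genes, 12 were at least 2-fold lower in OL-like cells than in MOL in each of the 3 mice. Among genes with at least 50 CPM on 1 side, 15% were. The median of the 16 was -2.55 on the log2 scale. Tspan2, a tetraspanin, was at 257, 148 and 116 CPM in OL-like cells and 2871, 2807 and 1022 CPM in MOL of mice 4, 5 and 7, or 8.13% of MOL. Sirt2, a deacetylase found in myelin, was closest to MOL at 68.5%, and Ninj2 lowest at 2.62%.

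Of 10 transcription factors of the lineage, 3 were at least 2-fold lower and 1 at least 2-fold higher in each of the 3 mice. Against these stand the same 15% of genes at least 2-fold lower, and the share at least 2-fold higher is not given here. Myrf, the activator of myelin genes, was at 125, 233, 157 and 175 CPM in OL-like cells and at 54.6% of MOL, and Sox10 was at 71.5%. Tcf7l2, a factor of premyelinating cells, was 5.63-fold higher in OL-like cells than in MOL. Unlike the myelin genes, these genes could enter the clustering, so their values are given as a description. Sox10, Olig1, Olig2 and Nkx2-2 were also among the markers that named the OL-like clusters.

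Among 7 genes of newly formed oligodendrocytes, the median was 2.00 on the log2 scale and none was 2-fold lower in each mouse. Bcas1 was at 106% of MOL and Enpp6 at 113%, while Neu4 was at 43.8, 22.7 and 81.9 CPM in OL-like cells against 0, 0 and 10.8 CPM in MOL of mice 4, 5 and 7. Most of these 7 genes also served to name the OL-like clusters.

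Seen cell by cell, nearly all OL-like cells had a UMI of at least 1 member, mostly of Mbp and Cnp, while Mog and Opalin had UMIs in few. After each cell was thinned to 2000 UMIs, which left out 1109, 13, 51 and 19 shallower OL-like cells of mice 4, 5, 6 and 7, an OL-like cell had UMIs of 3.82, 4.63, 3.61 and 3.65 of the 9 genes (3.93 ± 0.47, SD, n = 4). MOL had 8.66, 8.53 and 7.86 in mice 4, 5 and 7 at the same depth, and Myeloid cells 0.37, 0.32, 0.19 and 0.24. Without the 327 cells of low reporter, of which thinning kept 55, mouse 4 had 3.49 and the mean over mice was 3.84. Without thinning, OL-like cells had 4.36, 6.73, 4.88 and 5.67 of the 9 genes.

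Mbp had a UMI in 86.9 to 96.2% of thinned OL-like cells and Cnp in 88.5 to 93.0%. Mog had one in 7.81%, 11.5%, 2.88% and 7.98% of OL-like cells in mice 4 to 7, against 98.4%, 96.7% and 79.7% of MOL in mice 4, 5 and 7. Opalin had one in 5.38%, 3.23%, 0.958% and 6.42% of OL-like cells and in 68.8%, 58.3% and 40.5% of MOL. Without the cells of low reporter, the shares in mouse 4 were 3.63% for Mog and 1.02% for Opalin. Neither gene had a UMI in a thinned Myeloid cell in any mouse, and a count of 0 (3 counts as its limit) allows a share of cells with a UMI of up to 0.394% in mouse 6 with its 761 cells and up to 8.57% in mouse 4 with 35.

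The summed UMIs of the 9 genes per thinned cell had a median of 9, 12, 9 and 9 in OL-like cells of mice 4 to 7, and of 91, 71 and 46 in MOL of mice 4, 5 and 7. Only 0.269 to 1.60% of OL-like cells had none of them. At the upper end, 2.02%, 4.15% and 2.82% of OL-like cells in mice 4, 5 and 7 reached the 10th percentile of MOL of their mouse. Thinning removed shallow cells, among them most of the 327 cells of low reporter. As a share of all UMIs of a cell, with no thinning, 8.91%, 4.35% and 2.02% of all OL-like cells of mice 4, 5 and 7 reached the 10th percentile of MOL, and 0.197% in mouse 4 without the cells of low reporter.

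**Figure D3:**
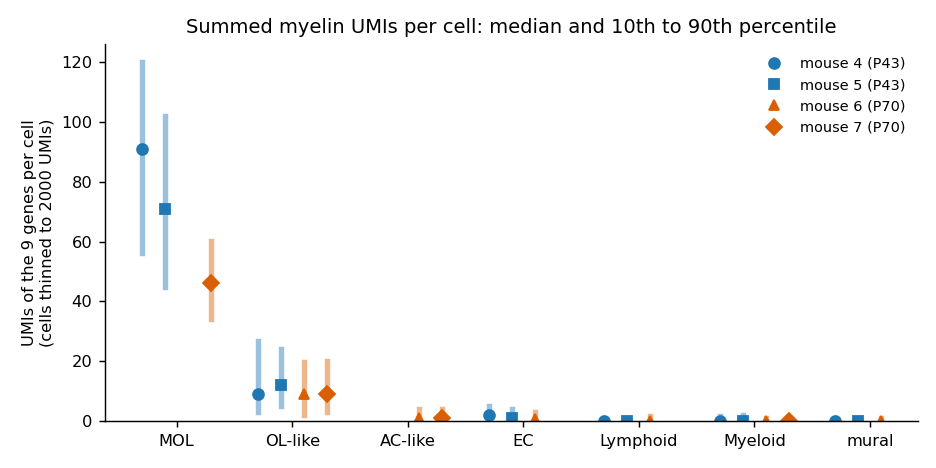
UMIs of the 9 genes per cell after thinning to 2000 UMIs, as the median (point) and the 10th to 90th percentile (bar) of each class and mouse with at least 20 such cells. The medians lie at 46 to 91 in MOL, at 9 to 12 in OL-like cells and at 2 or less in the other classes.

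The OL-like cells were not uniform. In the 3 mice with at least 20 cells there, the cluster led by Ptgds and Dct had the highest summed level, at 27542, 11058 and 10815 CPM in mice 4, 6 and 7, against 3448 to 7567 CPM in the other OL-like clusters of these mice. In mouse 7 its reporter level, taken over the whole cluster, was 1112 CPM, above the limit of 500 CPM. Whether its cells with most myelin UMIs carry the reporter was not tested. Mbp was at 4250 CPM there, Mobp at 1366 CPM, Mal at 576 CPM and Mog at 206 CPM. In the largest OL-like cluster of mouse 7, of 742 cells, the same genes were at 1448, 147, 60.3 and 4.5 CPM, and the reporter at 2296 CPM. These clusters were drawn from the same cells, so no test is given.

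Cells with more reporter had fewer myelin UMIs in all 4 mice. Thinned OL-like cells above the median reporter count of their mouse had a mean of 10.1, 10.8, 8.92 and 8.67 UMIs of the 9 genes, and those at or below it 15.2, 18.1, 11.6 and 12.1. Without the 327 cells of low reporter, the means of mouse 4 were 9.55 above and 10.6 at or below its median. These are per-cell values within each library and carry no test.

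Cycling OL-like cells had lower levels of all 9 genes. A cell was called cycling when it had UMIs of at least 2 of 8 cell cycle genes, and the UMIs were summed over cycling and non-cycling cells of each mouse. With edgeR's quasi-likelihood test and mouse as a block, 9 of 9 members fell in cycling cells at an adjusted p under 0.05, while 14.6% of 10562 genes passed in either direction. The median log2 change of the members was -1.03 and that of all genes tested -0.02.

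Mog differed most, at 12.6, 54.5, 5.33 and 33.9 CPM in cycling and 367, 161, 45 and 70.8 CPM in non-cycling cells of mice 4 to 7 (log2 change -2.42, SE 0.56, edgeR adjusted p = 0.021). Mal was at 221, 208, 63.6 and 129 CPM in cycling and 2129, 726, 128 and 268 CPM in non-cycling cells (-1.83, SE 0.33, adjusted p = 0.0073). Opalin fell by 2.29 on the log2 scale (SE 0.60, adjusted p = 0.035). In each mouse the cycling value was the lower for every member, while 38.3% of 10562 genes had the same sign in all 4 mice, in either direction.

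Mbp was at 2164, 1920, 1547 and 1734 CPM in cycling and 3920, 3229, 2372 and 2690 CPM in non-cycling cells, a log2 change of -0.71 (SE 0.07, edgeR adjusted p = 0.00024). Cnp changed least, by -0.39 (SE 0.09, adjusted p = 0.021). Mobp, Ermn, Mag and Cldn11 lay between, with log2 changes of -1.10, -1.03, -1.0 and -0.81.

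Of the 16 other myelin genes, 12 of the 15 tested fell in cycling cells and none rose, among them Nfasc (log2 change -1.05, edgeR adjusted p = 0.0076) and Cntn2 (-2.0, adjusted p = 0.0065). Among regulators, Sox10, Olig1, Sox8 and Zeb2 also fell by the same test, with changes of -0.30, -0.57, -0.36 and -0.36, and Myrf did not pass (-0.18, adjusted p = 0.25). Bcas1 was the only one of 7 genes of newly formed oligodendrocytes that fell (-0.48, edgeR adjusted p = 0.0016).

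Depth moved with this contrast: the median UMI count was 2662, 26414, 8728 and 13456 in cycling and 1010, 12598, 3543 and 9843 in non-cycling cells of mice 4 to 7. When cycling was called on cells thinned to 2000 UMIs, 9 of 9 members passed, and without the 327 cells of low reporter 9 of 9 passed as well, with Mog at -1.66 and Mal at -1.30. Without mouse 5, only Mbp and Mobp passed, and all 9 changes stayed negative. The share of all genes that passed in these other settings is not given here.

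**Figure D4:**
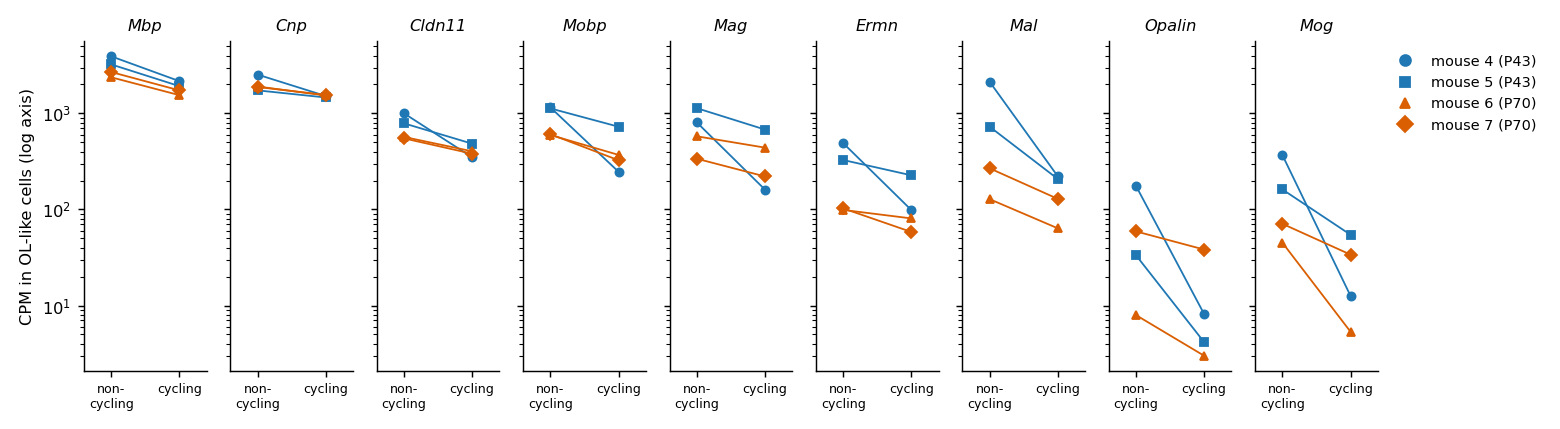
Level of each myelin gene in non-cycling and cycling OL-like cells, in CPM on a log axis, with 1 line per mouse. Every line falls to the right, least for Cnp (log2 change -0.39) and most for Mog (-2.42), and the lines of mouse 4 are the steepest for Mal, Opalin and Mog.

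No member passed the test between the ages in OL-like cells. With edgeR on sums per mouse, 0 of 9 members and 0% of 11605 genes were called, and at an unadjusted p under 0.05 there were 3 members and 536 genes. DESeq2 called 40 genes, 2 of them members, Ermn (log2 change -1.58, SE 0.29, DESeq2 adjusted p = 0.00017) and Mal (-2.13, SE 0.47, adjusted p = 0.0041). In counts simulated for this comparison, edgeR recovered 61.5% of genes changed 4-fold.

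The levels of 6 of 9 members did not overlap between P43 and P70, all 6 lower at P70, while 31% of all genes tested did not overlap in either direction. Without the 327 cells of low reporter in mouse 4, 4 of 9 did not overlap, 3 of them lower at P70 (Mbp, Mal and Ermn) and 1 higher (Cnp). The share of all genes not overlapping without these cells is not given here. Mal was at 744 and 314 CPM at P43 and 81.3 and 170 CPM at P70 (edgeR log2 change -2.12, SE 0.52, unadjusted p = 0.0089). Ermn was at 205 and 247 CPM against 85.6 and 71.3 CPM (-1.58, SE 0.23, edgeR unadjusted p = 0.00097), and Mog at 110 and 76.4 CPM against 16.2 and 44.8 CPM (-1.64, SE 0.48, edgeR unadjusted p = 0.018).

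Part of this rests on mouse 4. Without its 327 cells of low reporter, the log2 change of Mal was -1.29 (SE 0.36), that of Ermn -1.24 (SE 0.44) and that of Mog -0.67 (SE 0.79), and Opalin went from -0.42 to 1.42. Mbp was -0.40 (SE 0.16), Cldn11 -0.34 (SE 0.17) and Cnp -0.06 (SE 0.16) in the comparison of all OL-like cells.

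None of the 7 genes of newly formed oligodendrocytes passed the test between the ages. The levels of 4 of the 7 (Bcas1, Enpp6, Neu4 and Tnr) did not overlap, all higher at P70, against the same 31% of all genes, and those of Gpr17, Itpr2 and Bmp4 overlapped. Bcas1 was at 410 and 364 CPM at P43 and 601 and 569 CPM at P70, Neu4 at 43.8 and 22.7 against 87.5 and 81.9 CPM, and Tnr at 47.5 and 15.5 against 175 and 80.7 CPM. None of the 16 other myelin genes or 10 regulators passed either. Each age holds 2 mice, and age cannot be told apart from other differences between these libraries.

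MOL also differed between the ages, but only mouse 7 represents P70. Mal in MOL of mice 4, 5 and 7 was at 15867, 12174 and 2581 CPM, Ermn at 2816, 2750 and 844 CPM, and Mog at 3100, 2476 and 1015 CPM. Mbp stood the other way, at 5065 and 4843 CPM against 7063 CPM. Mouse 6, with 4 MOL cells, had Mal at 1105 CPM and Mbp at 13437 CPM. With 1 mouse at P70, this has no replicate check and no test was run.

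In cells that should make no myelin, the 9 genes were low but not absent. The summed level was 68.7 to 322 CPM in mural cells, 102 to 286 CPM in Myeloid cells, and 64.1 and 178 CPM in NB-like (neuroblast-like) tumor cells of mice 6 and 7. It was higher and more variable in DC (154 to 954 CPM), Lymphoid cells (214 to 856 CPM) and EC (572 to 1711 CPM). OL-like cells stood above the summed immune and vessel cells by 4.40 ± 1.32 on the log2 scale (median over the 9 genes, SD of the mouse medians, n = 4), or 21.2-fold, while the median over 3663 genes was 0.36. Without the 327 cells of low reporter it was 4.35. Of the 7 members with at least 50 CPM on 1 side in each mouse, 6 were at least 4-fold higher in OL-like cells in all 4 mice, as were 5.27% of genes. Mag, Cldn11 and Ermn reached 50 CPM through OL-like cells only, as did Mobp in mice 5 to 7. So did Mbp in mouse 6 and Cnp in mouse 5, where immune and vessel cells held 46.5 and 41.8 CPM. For these genes the count is partly set by the limit and is no independent support. Mog and Opalin did not reach the limit in each mouse.

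With all OL-like cells taken, the exception was Mal. Its level in OL-like cells was 1.36, 0.974, 1.47 and 2.68 times that in immune and vessel cells of mice 4 to 7. By contrast, Mbp was 14.8, 33.7, 38.1 and 10.6 times higher and Cnp 16, 36.3, 25.9 and 10.0 times. The exact sign-flip permutation test over 4 mice, which cannot go below 0.13, gave 0.13 for each of the 8 other members and 0.25 for Mal. In mouse 6, Mog and Opalin had no UMI in immune and vessel cells, and a floor of 3 counts was used. Without the 327 cells of low reporter, OL-like cells of mouse 4 held Mal, Mog and Opalin at 271, 17.6 and 7.49 CPM. That is under the 547, 23.2 and 11.8 CPM of its immune and vessel cells, while all other members stayed above.

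Among these classes Mal was highest in EC in each mouse. EC held 1213, 765, 475 and 472 CPM of Mal in mice 4 to 7, from 1196, 1500, 560 and 48 UMIs, which is 1.63, 2.44, 5.85 and 2.78 times the level in OL-like cells. Mural cells, the other vessel class, held 32.7, 4.16, 2.72 and 0 CPM, and Myeloid cells 9.68, 5.79, 0.662 and 0 CPM. The nearest class was DC of mouse 4, with 55 UMIs and a level 5.47-fold under that of EC. EC were thus 37.1-fold and 184-fold above mural cells in mice 4 and 5, where mural cells held 21 and 4 Mal UMIs. In mouse 6 EC held 560 UMIs against 3, and in mouse 7, with no mural UMI, EC were at least 13.6-fold higher against a floor of 3 counts in that library. EC were higher than mural cells in 4 of 4 mice (exact sign-flip permutation p = 0.13, the smallest it can give).

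After thinning, Mal had a UMI in 75.5% (exact 95% interval 68.9 to 81.3%), 69.8% (65.0 to 74.3%) and 45.9% (37.7 to 54.3%) of EC in mice 4, 5 and 6, against 1.27%, 1.33% and 0.917% of mural cells. The intervals cover counting error only. Mag had a UMI in 0.5 to 1.26% of EC in these mice. Before thinning, EC of these mice had a median of 1599, 3644 and 2032 UMIs and mural cells of 2214, 3580 and 1611.

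Mal made up a larger share of the 9-gene sum in EC than in MOL or OL-like cells of the same mouse. It gave 35.0%, 31.1%, 3.89% and 11.4% of the sum in MOL of mice 4 to 7, and 10.8%, 4.84%, 1.64% and 3.34% in OL-like cells. Mal gave 70.9%, 85.8% and 83.1% of the 9-gene sum in EC of mice 4, 5 and 6 and 35.3% in mouse 7, where 39 EC were kept and Mbp and Cnp were at 335 and 423 CPM.

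**Figure D5:**
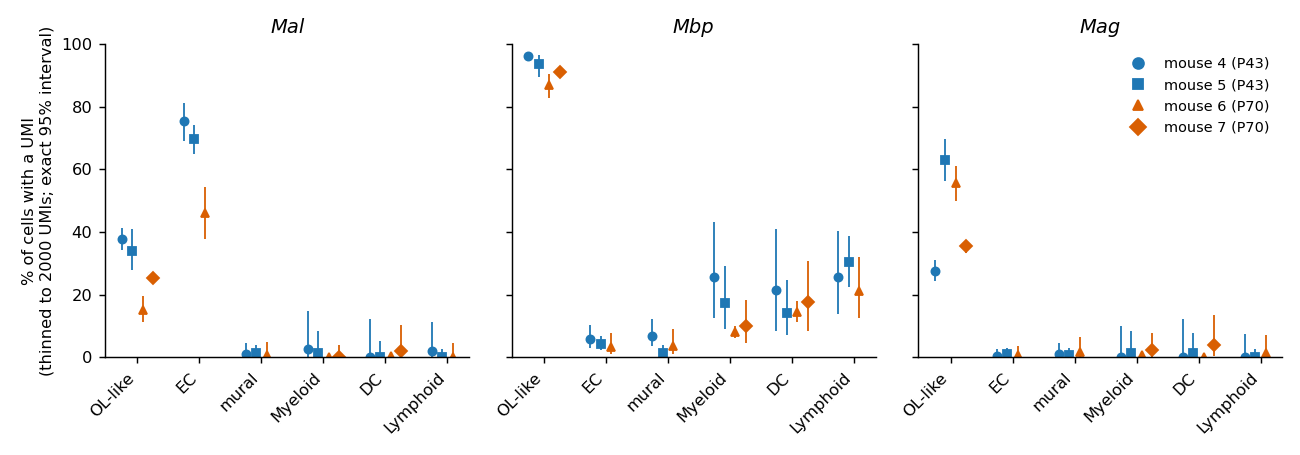
Share of cells with a UMI of Mal, Mbp or Mag after thinning to 2000 UMIs, by class and mouse with at least 20 such cells; the vertical lines are exact 95% binomial intervals. Mal has UMIs in 45.9 to 75.5% of EC, above the OL-like cells of the same mice, while Mbp and Mag are highest in OL-like cells among the classes drawn (MOL and the other tumor classes are not drawn) and Mbp is above its mural share in the 3 Lymphoid groups shown.

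Among immune cells, Mbp and Cnp made up most of the remaining signal. Mbp was at 189, 122, 39.5 and 98.6 CPM in Myeloid cells and at 377, 150, 88.9 and 190 CPM in Lymphoid cells of mice 4 to 7. Cnp was at 38.7, 46.3, 49.6 and 57.1 CPM in Myeloid cells. Mobp in the same Myeloid cells was at 24.2, 19.3, 2.65 and 7.78 CPM, and Opalin had no UMI in Myeloid cells of any mouse. In mouse 5, thinned Lymphoid cells had an Mbp UMI in 30.3% (22.6 to 38.9%) of cells, against 1.33% (0.275 to 3.83%) of mural cells of the same library.

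The mix of genes in Lymphoid cells differed from that of OL-like cells in mouse 5 more than in mouse 4. In mouse 5, Mbp was at 6.84% of its OL-like level in Lymphoid cells and Cnp at 5.17%, while Mobp was at 0.695%, Mag at 0.485% and Cldn11 at 0.343%. In mouse 6 the Lymphoid values were 5.01% for Mbp, 5.83% for Cnp and 2.02% for Mobp. In mouse 4 the mix was more even, from 6.54% for Opalin (1 UMI) to 22.5% for Mog (7 UMIs), with Mbp at 14.2% and Cnp at 12.8%. Apart from Mbp and Cnp, these Lymphoid values rest on 21 UMIs or fewer per gene.

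With age, none of 20 tests of members in the 5 immune and vessel classes passed with edgeR, and 5 had an unadjusted p under 0.05. Of all genes, 660 of 5540 in Myeloid, 624 of 5656 in DC and 526 of 6061 in Lymphoid cells had one. In EC 1683 of 8918 genes did, and in mural cells 2595 of 8525. With no filter on low counts, edgeR called 11 of 44 tests of members. The share of all genes called without the filter is not given here. DESeq2 called none. Of all genes tested with the filter, edgeR called 0.271% in Myeloid, 0.69% in DC, 0.412% in Lymphoid, 6.19% in EC and 19.3% in mural cells. Mal in EC came nearest, at 1213 and 765 CPM at P43 and 475 and 472 CPM at P70 (log2 change -0.98, SE 0.27, edgeR adjusted p = 0.060), and its groups did not overlap. Of the members tested in Myeloid, DC, Lymphoid, EC and mural cells, the groups did not overlap for 2 of 2, 0 of 5, 0 of 3, 2 of 7 and 0 of 3, against 42.5%, 40.4%, 37.7%, 49.6% and 58.6% of all genes tested.

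Over 35 sums of a class in a mouse with at least 20 cells, the 5 genes outside the lists that followed the mean of the 9 members most closely were Lgi3, Tmem151a, Fgfr2, Kndc1 and Hhip. Their Pearson r of log2(CPM + 10) was 0.966, 0.951, 0.947, 0.946 and 0.945. Each member's own r with that mean ran from 0.888 for Mal to 0.983 for Mag. Lgi3 was at 475, 428 and 202 CPM in MOL of mice 4, 5 and 7 and at 61.5, 37.4, 19.3 and 61.2 CPM in OL-like cells. The sums share libraries and cell types, so r is a description across them.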

How the data were processed

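Dissociated tumor cells were sequenced with a 10x 3′ method. The deposited files hold UMI counts per gene and cell, which the authors made with Cell Ranger 6.0.2 on mm10 with the luciferase and human MYCN sequences added. The study reports default values for the Cell Ranger count step. It names no separate setting for introns and no ambient RNA correction. The study treated cells of very high UMI count as doublets, and its lower limit was taken here. A cell was kept with at least 200 genes, no more than 40000 UMIs and under 25% of them mitochondrial (10975 cells). Scrublet called 34 cells, too few to be used. Seurat 5.3.0 integrated and clustered the cells (2000 variable genes without 25 myelin genes, 30 components, resolution 0.5). Clusters with at least 500 CPM of the reporter were clustered again without cell cycle genes, a step chosen after the first clusters were seen, as was 1 marker list. A name needed 3 markers raised 2-fold (10 CPM added); 534 cells stayed unassigned. UMIs were summed per class and mouse and tested with edgeR 4.0.16 (TMM, filterByExpr, quasi-likelihood F test, Benjamini-Hochberg over all genes, limit 0.05), with DESeq2 1.42.0 as an alternative. SE is the log2 change over the square root of F. The test was checked on simulated counts: of 200 genes changed 4-fold, 98.5% were recovered for cycling and 61.5% for age in OL-like cells. Each simulation used 1 dispersion for all genes (0.0147 and 0.102) and the same expected shares in all mice, apart from the changed genes. Genes named are the 9 members, examples from 3 fixed lists, markers, and the 5 genes most like the members. The members and lists were chosen with earlier results of these data known. Values of 1 other myelin gene are not reported here.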

Additional observations from a re-analysis of the deposited data

Results flagged for a closer look

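A cluster named neurons, led by Pcp4 and Scg2 and with 4 of 6 neuron markers, 42 cells of mouse 4 and no other mouse, entered no comparison but held the 9 myelin genes at 30210 CPM in sum, against 45343 CPM in MOL and 6909 CPM in OL-like cells of that mouse. It was singled out because this signal lies outside the classes compared. Of the 13 MOL markers, 10 had UMIs there, with a sum of 8144 CPM, and the neuron markers Rbfox3 and Gad1 were at 0. The median was 907 UMIs per cell. What part mixed droplets have in this level was not tested.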

How the results depend on the processing

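Of 123 recomputed values, 110 kept their direction, side of the threshold or size. With age in OL-like cells, 2 members were called with DESeq2 and 0 in the main test. Between cycling and non-cycling cells, the number of members called ran from 2 to 9 when a mouse was left out (2 without mouse 5). It was 0 with no term for the mouse, and the share of all genes called in these settings is not given here. In the immune and vessel classes, 11 of 44 tests were called with no filter on low counts, where the share of all genes called is not given. The median log2 ratio of OL-like cells to MOL was -2.28 without the 5% of cells with the highest Scrublet scores, against -2.97, and no lower than -3.30 in any setting. Settings that clustered the cells again also changed the classes: MOL of mouse 4 ran from 38 to 423 cells (no integration), against 65 in the main setting. Members with a UMI per OL-like cell were 2.99 at 1000 UMIs and 5.41 with no thinning. Leaving out 1 mouse moved the log2 change with age from -1.23 to 0.11 for Mag, from -0.15 to 0.033 for Cnp and from -2.87 to 1.20 for Opalin; it was reversed without mouse 5 for Mag, without mouse 4 for Cnp, and without mouse 4 or mouse 6 (0.37) for Opalin. The causes were not tested. Leaving out the OL-like cells of low reporter and the share of UMIs per cell without thinning were chosen after seeing the data. No paired analysis was possible between the ages because each mouse belongs to 1 age and nothing links mice across ages. The 4 MOL cells of mouse 6 and the shallow cells of mouse 4 limit what these data can show.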

Other observations

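The other tumor classes carried little of the 9 genes. AC-like (astrocyte-like) cells held 682 and 918 CPM in sum in mice 6 and 7, with 48 and 184 cells, which is above NB-like cells at 64.1 and 178 CPM (25 and 602 cells) in the same mice. Oligodendrocyte precursors (OPC) were not called a tumor class, as their cluster held 252 CPM of the reporter, under the limit of 500 CPM. They held 235 CPM of the 9 genes in mouse 5 and 423 CPM in mouse 7, from 22 and 112 cells. In AC-like cells of mouse 7 Mbp had a UMI in 47.4% and Cnp in 34.1% of thinned cells, and Mobp in 0.578%.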
